A study of Mus musculus with 11 samples.

Results

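Somatostatin (Sst), cortistatin (Cort) and the somatostatin receptors Sstr1, Sstr2, Sstr3 and Sstr4 were followed in the hippocampus of mice with a conditional knockout of Dclk3 and of wild-type mice. These 6 genes, of 30681 in the deposited count table, were chosen by family membership, with results of the knockout-against-wild-type comparison on these same libraries already known. Their differences between the genotypes are therefore given as a description with intervals, and no p-value of theirs is read as support. Polyadenylated RNA was sequenced from 1 hippocampus per library. The groups were 6 libraries labelled cKO (conditional Dclk3 knockout) and 5 wild-type (WT) libraries, all from adult mice aged 6 months. Dclk3 encodes a doublecortin-like kinase, and the sources used here name neither the recombinase that drives its deletion nor the exons removed. Whether each library is a separate animal is not given by the labels, so intervals and p-values cover only the scatter among these samples.

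Somatostatin is a cyclic neuropeptide made in the hippocampus mainly by dendrite-targeting GABAergic interneurons, and cortistatin is a closely related peptide made by sparser cortical and hippocampal interneurons. Both bind a family of receptors coupled to the inhibitory Gi/o proteins, which lower cyclic AMP, open GIRK potassium channels and dampen neuronal firing. Sst is also a classic target of the cyclic AMP response element (CRE) and its binding protein CREB.

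The libraries need some care before the family is described. Dclk3 itself averaged 20.1 ± 3.44 CPM, a read count scaled to library depth, in libraries labelled cKO, against 22.4 ± 3.31 CPM in WT libraries (SD, n = 6 and 5). Its log2 fold change, cKO over WT, of -0.15 ± 0.12 (SE) was not called by edgeR (quasi-likelihood, Benjamini-Hochberg adjusted p = 0.727). The count covers Dclk3 as a whole and does not show whether part of it was deleted, so the group is called "labelled cKO" and every direction is that of the labels. By Xist and Y-linked transcripts all 6 libraries labelled cKO were male, as were WT replicates 2 and 5, while WT replicates 1, 3 and 4 were female. Fits with a sex term and fits to the male libraries therefore both set the libraries labelled cKO against WT replicates 2 and 5. They are not separate checks. Total counts ran from 24001828 to 35674490 per library.

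The parts of Sst and Cort that encode the mature peptides are close relatives, and they are shown because they are what makes 2 separate genes ligands of 1 receptor family. The last 14 codons before each stop codon are given on the coding strand, 5′ to 3′, from GENCODE M21 transcripts (build mm10). Capitals mark the bases identical between the genes once Cort is shifted by 3 bases.
Sst: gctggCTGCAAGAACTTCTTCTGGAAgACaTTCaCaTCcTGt
Cort: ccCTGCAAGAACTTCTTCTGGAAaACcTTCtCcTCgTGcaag
Of the 39 aligned bases 31 were identical, or 79.5%. The longest run shared by the whole Sst and Cort transcripts was 21 bases, within this stretch. Coding sequences of the receptors were 55.6% to 66.3% identical among Sstr1, Sstr2, Sstr3, Sstr4 and Sstr5, with Sstr1 and Sstr4 the closest pair, and no run shared by any pair among Sstr1 to Sstr4 was longer than 23 bases. Sstr3 and Sstr5 shared a run of 41 bases.

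A CRE lies in the promoter of the ligand Sst, and the receptor Sstr2 has the same letters at a similar place. RefSeq promoter entries matched 5 of the 6 members, all but Sstr1, and only these were searched. The windows below are RefSeq promoter sequence (build GRCm38.p6, the same coordinates as mm10), 5′ to 3′ on the gene's strand. Capitals mark the CRE TGACGTCA, which reads the same on both strands, or else its shorter core, TGACG or CGTCA.
Sst, chr16:23890874-23890903, minus strand: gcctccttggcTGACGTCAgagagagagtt
Sstr2, chr11:113619258-113619287, plus strand: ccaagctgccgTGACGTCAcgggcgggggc
Cort, chr4:149126765-149126794, minus strand: gctccggcttgtgCGTCAccgcgtgagtgt
Sstr3, chr15:78544338-78544367, minus strand: tggagatggggggTGACGtaccaggtgcgg
The CRE began 48 bases before the RefSeq start of Sst and 58 bases before that of Sstr2. GENCODE M21 starts Sst 114 bases further upstream, which puts the site inside its first exon in that annotation. The shorter core began 18 bases before the start of Cort and 9 bases before 1 of the 2 Sstr3 starts. GENCODE M21 starts Sstr3 340 bases further upstream than that start, so the core falls after the start in that annotation. Neither motif was found in the window of the other Sstr3 start or in that of Sstr4. Among all 32851 promoters of the same length (300 bases), 588 (1.79%) held TGACGTCA and 6837 (20.8%) held the shorter core on either strand, each count of the core including the full sites. A match describes the letters only and says nothing of binding.

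Somatostatin was by far the most abundant of the family. Per kb of exon, Sst averaged 303 ± 39.96 CPM over the 11 libraries (SD), which ranked it 62nd of 16553 genes. The receptors followed in the order of their means, with 13.9 ± 0.832 CPM per kb for Sstr4, 9.91 ± 0.616 for Sstr3, 6.09 ± 1.098 for Sstr1 and 4.75 ± 0.964 for Sstr2. The order of Sstr4 and Sstr3 rests on the length used, all annotated exons merged, which was 1424 bases for Sstr4 and 4320 for Sstr3. Without division by length Sstr3 averaged 42.8 CPM and Sstr4 19.8 CPM. Which Sstr3 transcripts were present was not tested. Cort, at 3.72 ± 1.28 CPM per kb, stood near the middle of all genes (rank 8497).

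**Figure D1:**
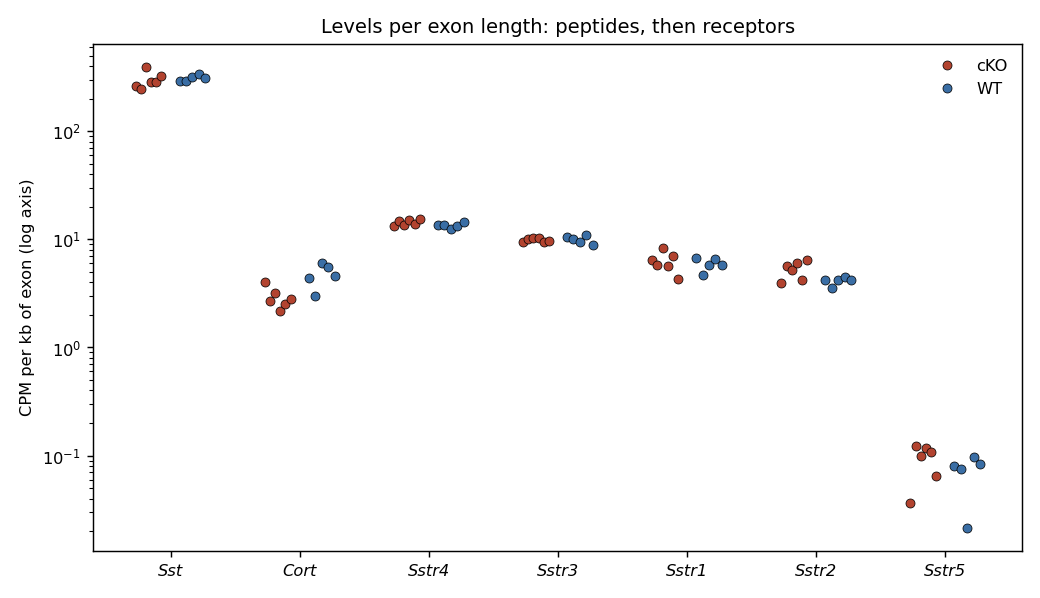
Level of each gene in CPM per kb of exon (log axis), one point per library, with libraries labelled cKO left of WT libraries for each gene. Sst lies 21.7 times above Sstr4 in the ratio of means, and Sstr5 lies far below the other genes.

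The steps from Sst to Sstr4, from Sstr4 to Sstr3 and from Sstr3 to Sstr1 held in 11 of 11 libraries, with no overlap of their ranges. The next neighbours overlapped. Sstr1 exceeded Sstr2 in 4 of 6 libraries labelled cKO and in 5 of 5 WT libraries. Sstr2 exceeded Cort in 5 of 6 libraries labelled cKO and in 1 of 5 WT libraries. The order of Sstr2 and Cort rests on the exon length used, 2143 bases for Sstr2 and 677 for Cort. Without division by length the lowest Sstr2 value, 7.59 CPM, lay above the highest Cort value, 4.11 CPM. Sstr5, the remaining receptor of the family, had 2 to 12 counts per library and did not pass the filter on low counts, while 6 of 6 members passed it.

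Of the 16587 genes tested across the table, edgeR called 0 (0%) at an adjusted p under 0.05, and so 0 of the 6 members. At an unadjusted p under 0.05 there were 1524 genes (9.19%), 637 higher and 887 lower, with Cort on the lower side and Sstr2 on the higher side. DESeq2 called 61 of the 14313 genes it tested (0.426%), with 0 of the 6 members among them. In 152 genes (0.916%) all libraries of one genotype lay outside the range of the other, and none of the 6 members was among these. The members were picked with this contrast known, so nothing is read from their counts against these shares.

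**Figure D2:**
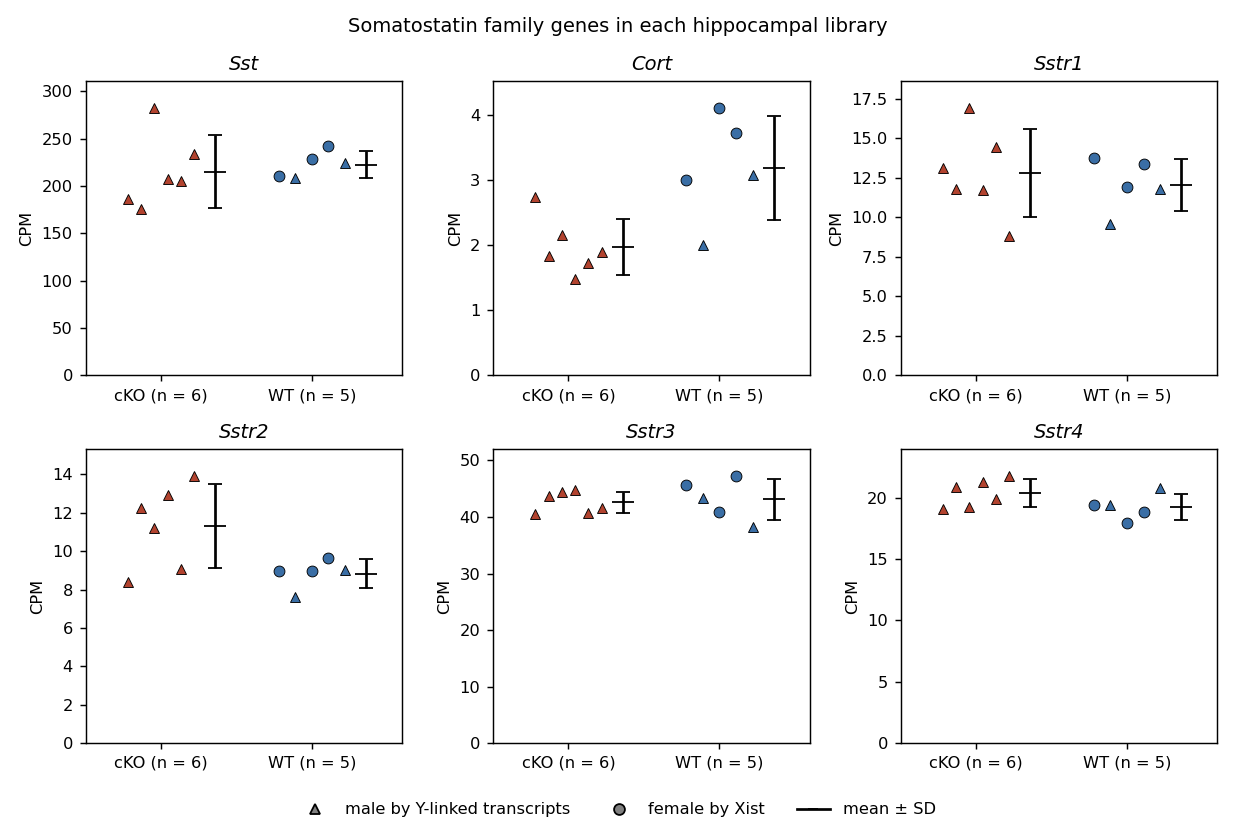
CPM of each member in every library, with libraries labelled cKO on the left and WT libraries on the right; triangles are male and circles female libraries, and bars give the mean and SD. The genotypes overlap for all 6 genes, and 4 of 6 libraries labelled cKO lie below every WT library for Cort and above every WT library for Sstr2.

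Among the ligands, Sst was at about the same mean level in both genotypes with a larger SD in the libraries labelled cKO, a difference in spread that was not tested. It lies on chromosome 16 (chr16:23889573-23890958, minus strand, ENSMUSG00000004366), has 2 exons and encodes the precursor of somatostatin. Replicates 1 to 6 labelled cKO had 187, 176, 282, 207, 205 and 234 CPM of Sst, against 210.2, 208, 228, 242 and 224 CPM in WT replicates 1 to 5. The lowest and the highest value both belonged to libraries labelled cKO, replicates 2 and 3, and 4 of these 6 libraries lay below every WT library. The means were 215 ± 38.4 CPM in libraries labelled cKO (SD, n = 6), against 223 ± 13.9 CPM in WT libraries (SD, n = 5). The log2 fold change of -0.05 ± 0.10 (SE) had a 95% interval of -0.27 to 0.17, and without replicate 2 labelled cKO it was 0.01. With a sex term it was -0.01, with an interval from -0.32 to 0.31.

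The mean count of Sst, 6872, gives a counting error of 1.21%, and its coefficient of variation was 17.9% in libraries labelled cKO and 6.25% in WT libraries. In the edgeR fit the biological coefficient of variation of Sst was 12.0%, against 7.40% for the trend of genes at its level. Sstr1 also stood above its trend, at 15.9% against 11.1%, as did Sstr2, at 13.5% against 11.8%, and Cort, at 19.5% against 17.4%. Sstr3 stood below it, at 6.80% against 7.69%, as did Sstr4, at 6.79% against 9.18%.

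Cortistatin had the largest difference of the 6 members, on the fewest reads. Cort lies on chromosome 4 (chr4:149125034-149126763, minus strand, ENSMUSG00000028971), has 2 exons and overlaps no exon of another annotated gene. Replicates 1 to 6 labelled cKO had 2.74, 1.83, 2.16, 1.48, 1.72 and 1.89 CPM of Cort, against 2.99, 2.01, 4.11, 3.72 and 3.08 CPM in WT replicates 1 to 5. In the group labelled cKO 4 of 6 libraries lay below the lowest WT library, and the other 2 fell within the WT range. The means were 1.97 ± 0.436 CPM in libraries labelled cKO (SD, n = 6), against 3.18 ± 0.802 CPM in WT libraries (SD, n = 5). The log2 fold change of -0.69 ± 0.18 (SE), a change of -38.2%, had a 95% interval of -1.08 to -0.31. In bulk tissue fewer cells of a type and less RNA per cell cannot be told apart.

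The Cort difference was smaller in the fits that took account of sex. The 2 male WT libraries, at 2.01 and 3.08 CPM of Cort, averaged 2.54 CPM. The 3 female WT libraries, at 2.99, 4.11 and 3.72 CPM, averaged 3.61 CPM, beside 1.97 CPM in the 6 male libraries labelled cKO. The WT sexes overlapped, and an effect of sex on Cort was not tested. With a sex term the log2 fold change of -0.37 ± 0.23 (SE) had a 95% interval of -0.85 to 0.11. Among the 8 male libraries it was -0.37 ± 0.24 (SE), from -0.88 to 0.15. Both values rest on the same 2 male WT libraries. A library held only 41 to 140 Cort reads. The mean count of Cort, 80, gives a counting error of 11.2%. Its coefficient of variation was 22.2% in libraries labelled cKO and 25.2% in WT libraries. The nearest coding gene, Cenps, a centromere protein gene, lies 358 bases away and had 1.75 ± 0.515 CPM in libraries labelled cKO and 2.02 ± 0.396 CPM in WT libraries (SD, n = 6 and 5). The log2 fold change of Cenps was -0.21 ± 0.20 (SE). Its level followed that of Cort across the 11 libraries with a Pearson r of 0.70 after removal of the genotype means. Whether reads of Cenps enter the Cort count was not tested. Markers of meningeal fibroblasts also had a lower median in the libraries labelled cKO (log2 fold change -0.37), and their part in the Cort value was not tested.

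With Cort lower and Sst near level, the balance of the ligands differed in the means. Sst per kb exceeded Cort per kb 106 ± 24.8 times in the libraries labelled cKO (SD, n = 6), with values from 64.0 to 131, and 69.0 ± 17.1 times in WT libraries (SD, n = 5), with values from 52.1 to 97.5. The ranges overlapped. The ratio carries the same imbalance of sexes as Cort.

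**Figure D3:**
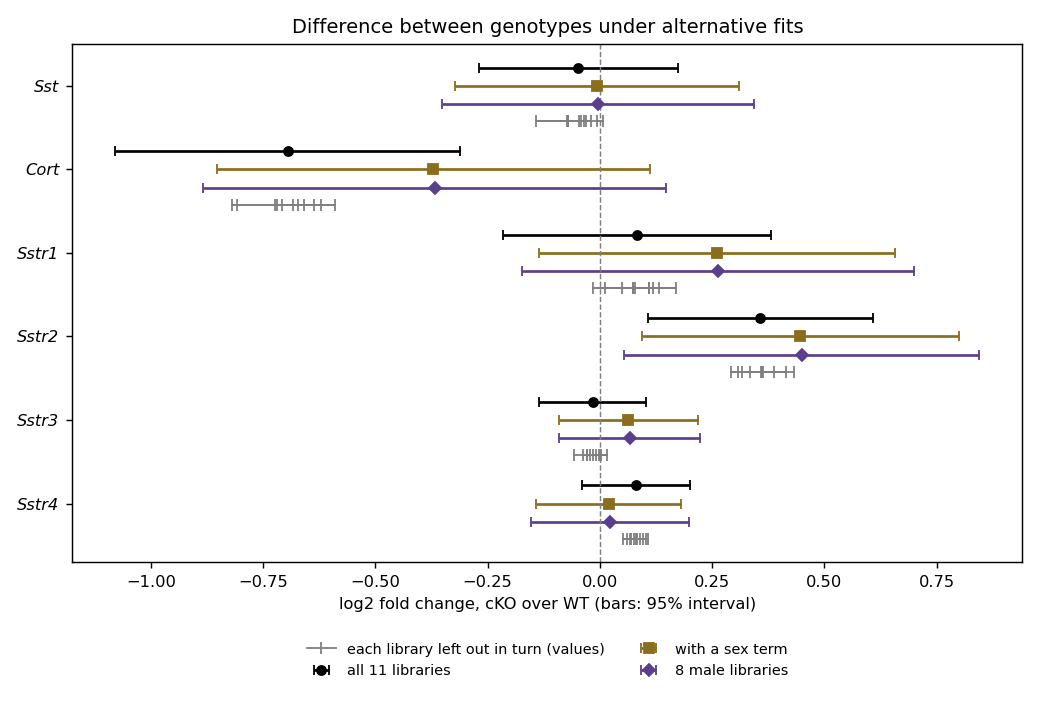
Log2 fold change, cKO over WT, of each member with its 95% interval from all 11 libraries, with a sex term and from the 8 male libraries; grey ticks are the values with each library left out in turn. The Cort value is -0.69 with all libraries and -0.37 with a sex term, whereas that of Sstr2 is 0.36 and 0.45. The values with a sex term and from the male libraries rest on the same male WT libraries.

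Among the receptors, Sstr2 was the one whose interval lay away from 0. Sstr2 encodes a Gi/o-coupled receptor of high affinity for both peptides, the target of octreotide, and lies on chromosome 11 (chr11:113619342-113626028, plus strand, ENSMUSG00000047904). Replicates 1 to 6 labelled cKO had 8.42, 12.3, 11.2, 12.9, 9.05 and 13.9 CPM of Sstr2, against 8.98, 7.59, 8.95, 9.62 and 9.02 CPM in WT replicates 1 to 5. Replicates 2, 3, 4 and 6 labelled cKO lay above every WT library, and replicates 1 and 5 lay within the WT range. The means were 11.3 ± 2.18 CPM in libraries labelled cKO (SD, n = 6), against 8.83 ± 0.748 CPM in WT libraries (SD, n = 5). The log2 fold change of 0.36 ± 0.12 (SE), a change of 28.1%, had a 95% interval of 0.11 to 0.61. It was 0.45 with a sex term (95% interval 0.09 to 0.80) and 0.45 among the 8 male libraries (0.05 to 0.84). Both values rest on the same male WT libraries, replicates 2 and 5. WT replicate 2 was the lowest of all libraries for Sstr2, at 7.59 CPM.

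Markers of astrocytes and microglia are given beside Sstr2, since their means were higher in the libraries labelled cKO as well. The summed level of 7 astrocyte markers was 8359 to 10403 CPM in libraries labelled cKO and 6743 to 7953 CPM in WT libraries, and that of 6 microglial markers was 504 to 678 CPM in libraries labelled cKO and 493.1 to 540.5 CPM in WT libraries. All 7 and all 6 had higher means in the libraries labelled cKO, with 0 called by edgeR. In each list 4 were higher at an unadjusted p under 0.05, and DESeq2 called 1 astrocyte marker, Mlc1, and 0 microglial markers. None of these markers was at 0 in all libraries. Of 6 oligodendrocyte markers 4 had a higher and 2 a lower mean, with a median log2 fold change of 0.02, 0 called by edgeR or DESeq2 and 0 at an unadjusted p under 0.05. Over the 11 libraries, with genotype means removed, Sstr2 had a median Pearson r of 0.45 with the astrocyte markers and 0.62 with the microglial markers, and of -0.63 with 11 general GABAergic markers, where 0 of 11 were positive. The median over all 16586 other genes was -0.00379. These libraries share depth and composition, so the r values are descriptions. The part of the glial markers in the Sstr2 difference was not tested.

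Gfap, an intermediate filament gene of astrocytes that increases in reactive states, had the highest r with Sstr2 on the astrocyte list and is named for that reason after its values were seen. Replicates 1 to 6 labelled cKO had 667, 2354, 969, 1529, 769.6 and 3362 CPM of Gfap, against 1283, 680.4, 690.4, 694 and 649 CPM in WT replicates 1 to 5. Its r with Sstr2 was 0.80 (Spearman's rho 0.86), 0.90 within the libraries labelled cKO and 0.13 within the WT libraries, and 0.63 without the 2 libraries farthest from the median of Sstr2. Npy, the gene of neuropeptide Y, which many somatostatin interneurons also make, had the highest r with Sstr2 on the somatostatin co-marker list and is also named after its values were seen. Over that list the median r with Sstr2 was -0.40, with 5 of 19 positive. For Npy it was 0.86, with 0.95 within the libraries labelled cKO, 0.61 within the WT libraries and 0.70 without the 2 farthest libraries. Replicates 1 and 5 labelled cKO, the lowest of their group for Sstr2, were also the lowest of it for Npy, at 27.6 and 33.3 CPM.

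Sstr4, the most abundant receptor per kb, and Sstr3 had the lowest coefficients of variation pooled within genotypes, at 5.51% and 6.52%. In the WT libraries alone Sst, at 6.25%, varied less than Sstr3, at 8.41%. Sstr4 is a single-exon gene on chromosome 2 (chr2:148395344-148396767, plus strand, ENSMUSG00000037014) whose receptor is enriched in hippocampal pyramidal cells. Libraries labelled cKO had 19.04, 20.84, 19.2, 21.3, 19.9 and 21.8 CPM of Sstr4 (replicates 1 to 6), against 19.4, 19.4, 17.9, 18.8 and 20.79 CPM in WT libraries (replicates 1 to 5). In the group labelled cKO 3 libraries lay above the highest WT library, the nearest of them by a small margin. The log2 fold change of 0.08 ± 0.06 (SE) had a 95% interval of -0.04 to 0.20, and was 0.02 with a sex term.

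Sstr3 encodes the receptor of neuronal primary cilia and lies on chromosome 15 (chr15:78537008-78544685, minus strand, ENSMUSG00000044933). Libraries labelled cKO had 40.5, 43.6, 44.4, 44.7, 40.8 and 41.5 CPM of Sstr3 (replicates 1 to 6), against 45.7, 43.3, 40.9, 47.3 and 38.3 CPM in WT libraries (replicates 1 to 5). All values of the group labelled cKO fell within the WT range. For Sstr3 the log2 fold change of -0.02 ± 0.06 (SE) had a 95% interval of -0.13 to 0.10. Its sign turned with a sex term, to 0.06, with an interval from -0.09 to 0.22, so the bounds depend on the fit.

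Sstr1, a Gi/o-coupled receptor reported as an autoreceptor in several tissues, lies on chromosome 12 (chr12:58211772-58214444, plus strand, ENSMUSG00000035431). Libraries labelled cKO had 13.1, 11.8, 16.9, 11.7, 14.5 and 8.78 CPM of Sstr1 (replicates 1 to 6), against 13.7, 9.56, 11.9, 13.3 and 11.8 CPM in WT libraries (replicates 1 to 5). The WT range lay inside that of the group labelled cKO, whose replicate 3 was the highest library for Sstr1 as it was for Sst. Its log2 fold change of 0.08 ± 0.14 (SE) had a 95% interval of -0.22 to 0.38. It was 0.26 with a sex term, with an interval from -0.14 to 0.66.

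The make-up of the receptor pool followed these values, and its shares rest on the exon lengths used. Summed per kb, Sstr1 to Sstr4 reached 35.7 ± 1.58 CPM in libraries labelled cKO (SD, n = 6), against 33.5 ± 1.61 CPM in WT libraries (SD, n = 5). Sstr4 made up 40.1% of the sum in libraries labelled cKO and 40.4% in WT libraries, and Sstr3 made up 27.6% in libraries labelled cKO and 29.8% in WT libraries. Sstr1 made up 17.5% in each. Sstr2 made up 14.7 ± 2.48% in libraries labelled cKO, with values from 11.9% to 18.2%, and 12.3 ± 0.769% in WT libraries, with values from 11.1% to 13.04%.

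**Figure D4:**
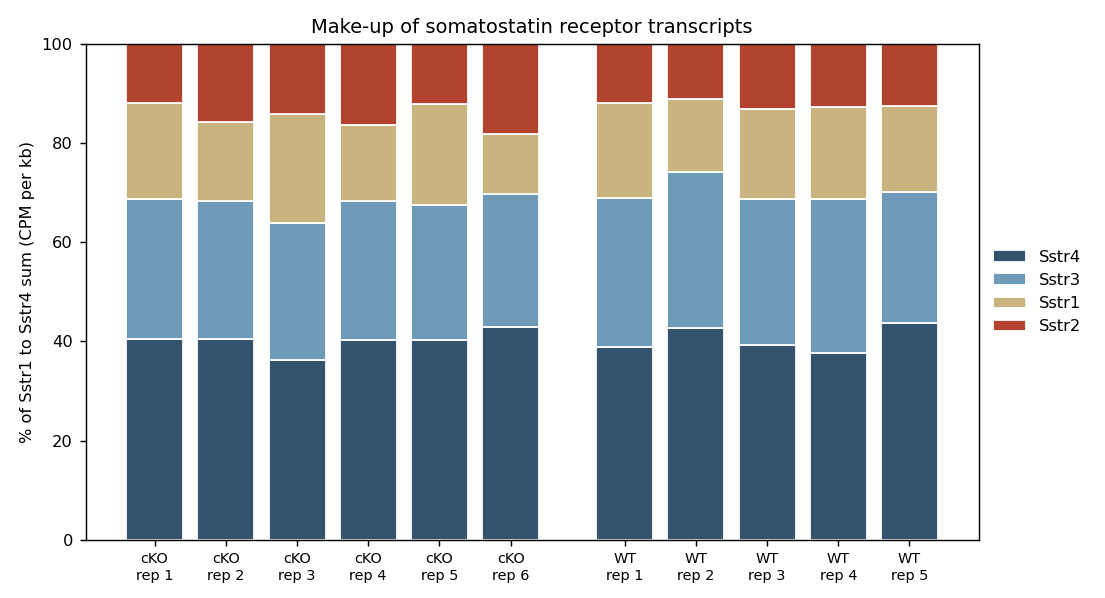
Share of each receptor in the sum of Sstr1 to Sstr4 (CPM per kb) in every library, with libraries labelled cKO on the left. Sstr4 and Sstr3 make up most of the sum in every library, and the Sstr2 share reaches 18.2% among the libraries labelled cKO and 13.04% among the WT libraries.

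All 15 pairs of members were compared over the 11 libraries after removal of the genotype means, and 0 passed an adjusted p under 0.05 (2-sided permutation within genotype, Benjamini-Hochberg over the pairs). The ligands Sst and Cort had a Pearson r of 0.20 (permutation p = 0.542, adjusted p = 0.739) and a Spearman's rho of 0.35 (permutation p = 0.323, adjusted p = 0.692), with an r of 0.11 without the 2 libraries farthest from the median of Sst and 0.03 within the libraries labelled cKO. The largest r in size was that of Sstr1 and Sstr4, at -0.59 (permutation p = 0.0744, adjusted p = 0.463), with a rho of -0.58 (permutation p = 0.0806, adjusted p = 0.592). It was -0.31 without the 2 farthest libraries and -0.84 within the libraries labelled cKO. Sstr2 and Sstr4 had an r of 0.57 (permutation p = 0.0926, adjusted p = 0.463) and a rho of 0.73 (permutation p = 0.0273, adjusted p = 0.410), with an r of 0.41 without the 2 farthest libraries and 0.85 within the libraries labelled cKO. Cort and Sstr4 had an r of -0.58 (permutation p = 0.0796, adjusted p = 0.463) and a rho of -0.50 (permutation p = 0.142, adjusted p = 0.592), with an r of -0.63 without the 2 farthest libraries and -0.71 within the libraries labelled cKO.

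The genes whose pattern over the 11 libraries was most like that of Sst, by Pearson r of log2 CPM with the genotype means removed, were Kat14 at 0.95, Abraxas2 at 0.93, Scyl2 and Tax1bp1 at 0.91, and Sf3a3 and Oca2 at 0.89. Those least like it were Rpl27a and H2-DMb2 at -0.93 and Zzz3 at -0.92. For Cort, genes among the most alike were Lrmda at 0.89, Rab24 at 0.88, 1810010H24Rik at 0.87, Piezo1 at 0.86 and Nasp at 0.85. The least alike were Ugt1a7c at -0.89, Gm4366 at -0.88 and Hacd2 at -0.87. These are the extremes of 16586 genes over few libraries, and no likeness was tested.

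The listed co-markers of somatostatin interneurons were, as a list, near level between the genotypes. Whether other cells of the hippocampus add to their values was not tested. Of 20 co-markers of somatostatin interneurons 19 were tested and 0 called by edgeR or DESeq2, with 0 at an unadjusted p under 0.05, 10 with a higher and 9 with a lower mean in libraries labelled cKO, and their median log2 fold change was 0.01, beside -7.86e-05 over all genes tested. Chodl, a marker of long-range somatostatin neurons, did not pass the filter on low counts. The most abundant were Synpr, a synaptic vesicle gene, with a log2 fold change of 0.01 ± 0.07, Nos1, nitric oxide synthase, with -0.03 ± 0.10, and Spon1 with 0.03 ± 0.05 (SE). Ptchd4, among the co-markers of smallest p, was at -0.25 ± 0.14 (SE).

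Crhbp, the gene of a secreted protein that binds corticotropin-releasing hormone, had the highest r with Sst on that list, 0.87, and is named for it after its values were seen. Replicates 1 to 6 labelled cKO had 18.05, 17.8, 26.1, 20.9, 17.8 and 22.6 CPM of Crhbp, against 21.9, 20.04, 20.03, 20.9 and 21.7 CPM in WT replicates 1 to 5. Replicate 3 labelled cKO was the highest library for both genes, and replicates 1, 2 and 5 were the lowest for both. The r was 0.94 within the libraries labelled cKO and -0.05 within the WT libraries, and 0.61 without the 2 libraries farthest from the median of Sst. Over the whole co-marker list the median r with Sst was 0.20, with 11 of 19 positive, beside -0.02 over all other genes. It was 0.24 with markers of other interneuron classes (13 of 16 positive) and 0.21 with general GABAergic markers (9 of 11 positive). A positive median was thus not particular to the somatostatin co-markers.

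Pan-GABAergic genes were likewise near level. Of 11 tested 0 were called by edgeR or DESeq2, with 0 at an unadjusted p under 0.05, 6 with a higher and 5 with a lower mean, with a median log2 fold change of 0.01. The GABA-synthesising enzymes Gad1 and Gad2 had log2 fold changes of 0.03 ± 0.06 and 0.08 ± 0.06 (SE) and the homeobox gene Dlx5 one of -0.16 ± 0.15 (SE). Of 16 markers of other interneuron classes 8 had a higher and 8 a lower mean, with 0 called by edgeR or DESeq2 and 2 higher at an unadjusted p under 0.05. These were Ndnf, a marker of neurogliaform cells, at 0.15 ± 0.07, and Tnfaip8l3 at 0.14 ± 0.05 (SE). The abundant members Cck, Cnr1 and Kcnc1 had log2 fold changes of -0.07, 0.08 and -0.01.

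Genes that cut the precursors and handle the peptides were counted next. Of 18 tested 13 had a higher and 5 a lower mean in libraries labelled cKO, with a median log2 fold change of 0.05. edgeR called 0, and 3 of the 18 were higher at an unadjusted p under 0.05, a level that 9.19% of all genes tested reached in either direction. Scg3, a secretogranin that sorts peptides into dense-core granules, averaged 455 ± 31.6 CPM in libraries labelled cKO and 396 ± 14.8 CPM in WT libraries (SD, n = 6 and 5). Its log2 fold change of 0.20 ± 0.05 (SE) passed in DESeq2 (adjusted p = 0.0447) and not in edgeR (adjusted p = 0.349). Cpe, carboxypeptidase E, which trims the cut precursors, was at 0.12 ± 0.05 and Ide, a peptide-degrading protease, at 0.10 ± 0.04 (SE). Chgb, a granin, was at 0.13 ± 0.15, and Pcsk1n, the proSAAS inhibitor of a prohormone convertase, at 0.02 ± 0.06 (SE).

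Downstream of the receptors, 19 of 24 genes of Gi/o signalling, GIRK channels, arrestins and their partners had a higher and 5 a lower mean, with a median log2 fold change of 0.04 and 0 called by edgeR or DESeq2. At an unadjusted p under 0.05 were Gnai3, an inhibitory G protein subunit, at 0.10 ± 0.05, and Arrb2, an arrestin that binds activated receptors, at -0.12 ± 0.05 (SE). The abundant Gnao1, the Go subunit, was at 0.03 ± 0.05 and the adenylyl cyclase Adcy1 at -0.09 ± 0.12 (SE). Of 18 tested receptors for other peptides and Gi-coupled transmitters 13 had a higher and 5 a lower mean, with a median of 0.04, 0 called by edgeR or DESeq2 and 1 at an unadjusted p under 0.05. Npy1r, a neuropeptide Y receptor, was that gene, at -0.18 ± 0.07, with the opioid receptor gene Oprd1 at 0.17 ± 0.08, and the abundant Gabbr1, Gabbr2 and Adora1 at 0.05, -0.02 and 0.02.

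Factors that act at the CRE, counted together with protein kinase A subunits and the kinase gene Camk4, showed no shared direction in their means. Of 15 tested 8 were higher and 7 lower, with a median log2 fold change of 0.00 and 0 called by edgeR or DESeq2. At an unadjusted p under 0.05 were Crtc2, a CREB coactivator, at -0.18 ± 0.06, and Atf4, a stress-responsive factor of the same family, at -0.14 ± 0.06 (SE). Crtc1, the main neuronal CREB coactivator, was at 0.00 ± 0.04, and the protein kinase A subunits Prkacb and Prkar1a were at 0.06 and 0.07. The 2 genes with a full CRE among the 5 searched, Sst and Sstr2, had log2 fold changes of -0.05 and 0.36.

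**Figure D5:**
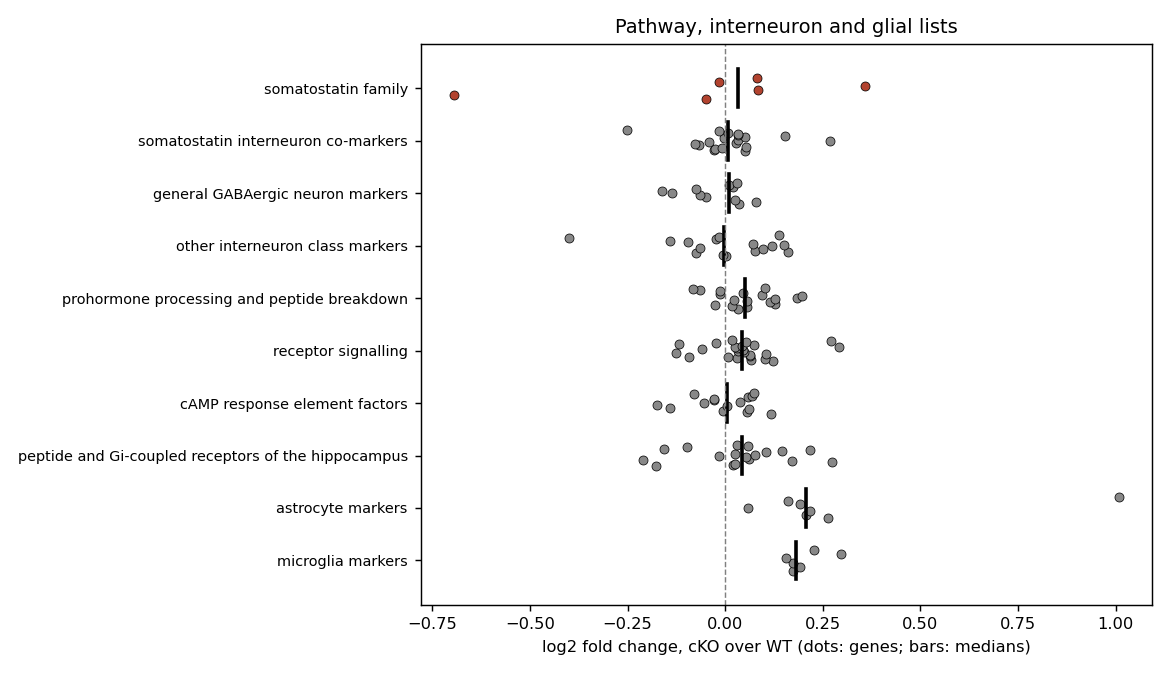
Log2 fold change, cKO over WT, of each tested gene (dots) and the median (bars) of the somatostatin family and of the pathway, interneuron and glial lists. The interneuron medians lie near 0, at 0.01 for the somatostatin co-markers, and those of the astrocyte and microglial markers are 0.21 and 0.18.

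Markers of neighbouring regions and of the meninges were counted in the same way. The summed level of 11 neocortical markers was 188 to 249 CPM in libraries labelled cKO and 204 to 254 CPM in WT libraries, with a median log2 fold change of -0.06. Only 3 of 9 hypothalamic markers passed the filter, with Hcrt, Avp and Oxt among those that did not, and the list summed to 2.39 to 3.69 CPM in libraries labelled cKO and 2.82 to 5.72 CPM in WT libraries. Thalamic markers had a median log2 fold change of -0.16 (3 higher and 7 lower of 10), and striatal markers one of -0.02 (4 higher and 4 lower of 8), with Drd1, a dopamine receptor, at 1.02 ± 0.32 and Penk, proenkephalin, at 0.53 ± 0.15 (SE). Of 8 meningeal fibroblast markers 2 had a higher and 6 a lower mean, with a median log2 fold change of -0.37, and their sum was 102 to 190.4 CPM in libraries labelled cKO and 126 to 193 CPM in WT libraries. edgeR called 0 in each of these lists. At an unadjusted p under 0.05 were 4 thalamic and 4 meningeal markers, all lower, and 3 striatal markers, 2 higher and 1 lower. DESeq2 called 2 thalamic and 4 meningeal markers lower and 1 striatal marker higher. Their part in the values of the 6 genes was not tested.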

How the data were processed

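Per the labels' protocols, polyadenylated RNA of single hippocampi was sequenced with a strand-marking (dUTP) kit. The build is mm10 and a tool named is bcl2fastq 2.17.1.14, per the submitters' processing notes. Not given in the sources used here: aligner, counter, use of strand. The authors deposited unnormalized whole counts for each Ensembl gene. Of 30681 genes 30566 matched a symbol. Intervals reflect 24001828 to 35674490 counts per library. No replicate pair was alike within sampling noise (smallest chi-square per degree of freedom 5.59).

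Members and lists were chosen with earlier results of these data known. The filter filterByExpr kept 16587 genes, scaled by TMM factors. CPM was computed here from the deposited counts, and CPM per kb used the merged length of all GENCODE M21 exons of a gene. edgeR 4.0.16 (quasi-likelihood, robust, 2-sided, Benjamini-Hochberg, threshold 0.05) was fitted to all 11 libraries by genotype. Standard errors come from the F statistic. In each list the 3 most abundant genes and the 2 of smallest p were eligible for naming, and some of the genes the rules take are not reported here. Pairs of members used 100000 permutations. Replicate numbers were not taken to pair libraries. Alternatives were other scalings and filters, DESeq2 1.42.0, limma 3.58.1 (voom), a replicate block, a sex term, the male libraries and each library left out, in R 4.3.3.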

Additional observations from a re-analysis of the deposited data

How the results depend on the processing

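Over 21 alternatives each, the 6 members gave 126 recomputed fold changes, of which 119 kept their direction, 7 changed sign and 0 were called. Over all genes, edgeR called 1 with library totals and 3 with no filter, against 0 as reported, and DESeq2 called 61. With each library left out the count ran from 0 to 14, the highest without WT replicate 5, with 2 without WT replicate 2 and 1 without WT replicate 1. The causes were not tested. Sstr3 changed sign to 0.0635 with a sex term and to 0.0658 in the male libraries, and ran from -0.0579 to 0.0160 with each library left out. In the same way Sst ran from -0.142 to 0.00577 and Sstr1 from -0.0151 to 0.169, while Cort ran from -0.82 to -0.59 and Sstr2 from 0.29 to 0.43 with no change of sign. With the replicate block, on replicates 1 to 5 of both genotypes, 0 genes were called, and the log2 fold changes were -0.09 for Sst, -0.67 for Cort, 0.17 for Sstr1, 0.28 for Sstr2, -0.01 for Sstr3 and 0.06 for Sstr4. Libraries with the same number had correlations of -0.32, -0.10, -0.14, 0.21 and 0.11. Replicate 4 labelled cKO was most like WT replicate 4, while replicates 1, 2, 3 and 5 were most like WT replicates 5, 1, 4 and 2. Whether libraries of the same number share more than the number was not tested. The pair count was 0 under every alternative run. Depth limits Cort, with 41 reads in its lowest library, and leaves Sstr5 untested.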
